A study of Mus musculus with 6 samples.

Results

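The large histone gene cluster of mouse chromosome 13 was examined for DNA methylation in the right testes of 6 adult KM mice. Members were all cytosine positions with at least 10 reads in every library within 2 blocks of the cluster, in coordinates of the mouse build GRCm38. Along chromosome 13, the members of block 1 lay from 21722291 to 22043502 and those of block 2 from 23543014 to 23764906. The rule kept 335 of the 952515 positions that met the same read minimum on chromosomes 1 to 19, X and Y. Of these, 211 lay in block 1 and 124 in block 2, and they formed 264 CpGs once the 2 strands were joined.

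Reduced representation bisulfite sequencing was used, in which the enzyme MspI cuts at CCGG, short fragments are selected, and bisulfite turns unmethylated but not methylated cytosines into uracil. The hemicastrated group had lost the left testis before puberty (n = 3), and the sham group had undergone the same kind of surgery without removal (n = 3). All 6 were male KM mice, a strain that is kept outbred, and the remaining right testis was taken at body maturity. Each mouse gave 1 library of whole testis, so a level is an average over germ cells and somatic cells in unknown shares, and a change in cell shares cannot be told apart from a change within a cell type.

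The cluster holds the replication-dependent histone genes, which supply the core histones H2A, H2B, H3 and H4 and the linker histone H1 when DNA is copied. Most of these genes are short and lack introns, and neighbouring H2A and H2B genes often share 1 divergent promoter. In the male germ line, the linker histone gene H1f6 (H1t) is switched on in meiosis, and most histones are later exchanged for protamines. In mammals, dense methylation of a CpG-rich promoter goes with a silent gene, and active CpG-rich promoters are usually unmethylated.

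The gene table placed 54 histone genes in the 2 blocks, 6 for H1, 14 for H2A, 14 for H2B, 9 for H3 and 11 for H4, of which 2 were pseudogenes. It also placed 34 tRNA genes and 15 other genes there. Member positions fell within 500 bp of 17 of the histone genes, and 16 of those had at least 3 positions. No H3 gene had one. Inside histone gene boundaries lay 192 positions, 29 more lay within 500 bp outside, and 114 lay elsewhere, 34 of them at Prss16, a serine protease gene, and 15 at tRNA genes.

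The libraries held 64504011 to 78630942 calls, and 0.478% to 0.617% of calls on mitochondrial DNA, taken as nearly unmethylated, were methylated. A member position had a median of 30 reads, between 10 and 150. The median was 27, 22 and 32 reads in the hemicastrated libraries and 30, 35 and 25 reads in the sham libraries. PCR copies are not independent molecules, and neighbouring positions share reads, so counts overstate the independent evidence. The testis label was checked at germline genes that somatic cells methylate. Dazl averaged 8.18%, Sycp3 17.4% and Tex101 13.5%, and the maternally methylated Kcnq1ot1 averaged 7.87%. The windows of Ddx4, Peg3, Snrpn and Mest had no position with enough reads.

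Promoters of H1f5, H1f2 and H4c3 are shown because they are CpG-rich histone gene starts that were deeply read and almost unmethylated. That of H1f6 is shown as the testis H1 gene, which was read too thinly to be a member. The sequences are RefSeq's for GRCm38.p6, from 250 bases before to 50 after the start, written in the direction of the gene. Capitals mark CpGs with member positions in H1f5, H1f2 and H4c3, and in H1f6 the CpGs with any read.
H1f5: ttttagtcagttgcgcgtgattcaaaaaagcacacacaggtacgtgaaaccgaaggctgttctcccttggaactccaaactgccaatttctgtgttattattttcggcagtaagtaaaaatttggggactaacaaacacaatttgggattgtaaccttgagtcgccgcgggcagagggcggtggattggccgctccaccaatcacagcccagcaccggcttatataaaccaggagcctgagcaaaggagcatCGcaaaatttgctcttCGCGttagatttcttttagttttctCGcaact
H1f2: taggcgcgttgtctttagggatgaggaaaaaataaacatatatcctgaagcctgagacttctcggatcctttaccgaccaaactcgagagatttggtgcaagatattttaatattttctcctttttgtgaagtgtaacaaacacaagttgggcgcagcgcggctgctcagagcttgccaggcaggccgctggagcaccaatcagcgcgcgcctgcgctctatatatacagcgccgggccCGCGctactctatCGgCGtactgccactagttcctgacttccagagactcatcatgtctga
H4c3: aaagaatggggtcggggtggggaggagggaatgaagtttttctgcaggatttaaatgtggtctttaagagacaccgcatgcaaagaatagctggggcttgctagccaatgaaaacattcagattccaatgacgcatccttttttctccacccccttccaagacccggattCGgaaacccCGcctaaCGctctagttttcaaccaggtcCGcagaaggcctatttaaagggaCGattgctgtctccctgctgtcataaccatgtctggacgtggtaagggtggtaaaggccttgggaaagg
H1f6: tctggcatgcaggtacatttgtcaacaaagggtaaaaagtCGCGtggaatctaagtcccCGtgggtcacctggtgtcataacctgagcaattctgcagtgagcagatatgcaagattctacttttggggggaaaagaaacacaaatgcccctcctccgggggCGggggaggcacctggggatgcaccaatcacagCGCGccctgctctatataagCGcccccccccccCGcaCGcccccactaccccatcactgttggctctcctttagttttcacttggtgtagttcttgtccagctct

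The H1f5 promoter spans chromosome 13 from 21780576 to 21780875 on the minus strand, and 9 of 2975 reads at its capital CpGs were methylated. H1f2 spans 23738557 to 23738856 on the plus strand, with 4 of 1745 reads methylated. H4c3 spans 23698409 to 23698708 on the minus strand, with 6 of 937 reads methylated. H1f6 spans 23695561 to 23695860 on the plus strand, and its capital CpGs had 27 reads in all, none methylated, which allows a share of up to 11.1%. A read here is a read at 1 position, so 1 sequenced fragment counts at each CpG it covers. The limit for H1f6 takes reads as independent, so the true limit is higher.

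Promoter sequences of the cluster were compared with all 32851 in the RefSeq table for short motifs on both strands. The TATA box TATAAA was in 29 of 50 starts of the cluster's histone genes (58.0%, against 13.6% of all promoters). CCAAT was in 42 (84.0%, against 37.4%), and in each H1, H2A, H2B and H3 start. The octamer ATTTGCAT, known from H2B genes, was in 9 starts (18.0%, against 1.74%), 5 of them H2B and 4 H2A. Promoter sequences of a divergent pair, such as H2ac15 and H2bc15, can overlap, so the same motif can count for both genes. The H1 box AAACACA was in 5 of 6 H1 starts and in 14.0% of all the cluster's starts, against 7.18% of all promoters. The MspI site CCGG was in 28.0% of the cluster's starts, against 52.8% of all promoters, and in none of the H2A and H2B starts. The median number of CpGs was 11 per 300 bases in the cluster, against 7 over all promoters.

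The starts of the histone genes were almost free of methylation in every mouse. All 194 member positions within 500 bp of a histone gene start had a mean level under 10%, the highest being 3.33% and the median 0.265%, and 87 had no methylated read in any library. A median over positions, many of them at 0, is unlike a share of pooled reads. Pooled over all reads at the starts of genes with member positions, 0.348% to 0.583% were methylated per library. That range overlaps the 0.478% to 0.617% on mitochondrial DNA. Over the whole cluster, 317 of 335 positions (94.6%) were under 10%, 4 lay between 10% and 50%, and 14 (4.18%) were at 50% or more. In the whole series 62.7% of positions were under 10% and 31.0% at 50% or more.

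Measured as 500 bp on either side of the start, with at least 3 positions and at least 1 methylated read, 14 histone gene starts had a median level of 0.432%, between 0.185% and 1.11%. All 14 were under 2%, as were 88.3% of the 12633 gene starts measured in the genome, whose median was 0.537%. Low methylation at a start was thus shared with most measured genes.

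Levels were low to 1000 bp downstream of a start and mixed farther away. Upstream, the only positions within 500 bp were 15 less than 250 bp away, which averaged 0.623%. Positions less than 250 bp downstream of the start averaged 0.449% (n = 115), those from 250 to 500 bp 0.431% (n = 64) and those from 500 to 1000 bp 0.478% (n = 17). The 6 positions from 1000 to 2000 bp averaged 11.4%, and 4 of them lie behind H1f1. Beyond 2000 bp downstream 107 positions averaged 6.51%, and 11 positions more than 500 bp upstream averaged 69.6%, so levels followed no steady course with distance. Within a library, positions within 500 bp of a histone gene differed by -7.26 ± 0.526 points from the other positions of the blocks (SD, n = 6 libraries), lower in 6 of 6 (exact two-sided sign-flip permutation test, p = 0.03125, the smallest that 6 libraries allow). At 50% or more were 4 of these 221 positions, against 10 of the other 114, and the medians were 0.273% and 1.08%. The cluster differed by -24.9 ± 0.328 points from the rest of the genome, lower in 6 of 6 libraries (exact two-sided sign-flip permutation test, p = 0.03125). Both tests ask only whether a gap recurs from mouse to mouse. Each library holds the same positions, so they cannot tell whether the cluster is unusual among loci.

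The mean level of the cluster did not differ between the groups beyond the spread between mice in the main comparison. It was 4.86% ± 0.0879 in hemicastrated and 4.86% ± 0.128 in sham mice (SD, n = 3 each; exact two-sided permutation test, p = 1). Such a test of 3 against 3 cannot give a p under 0.1. The cluster, block 2 and the positions away from histone genes include position 23723584, described below. It was 65.2 points higher in hemicastrated mice and weighs on these means. Means without only this position were not computed. With coverage as weight the cluster's difference was -0.580 points (exact permutation p = 0.3), and with at least 20 reads in all libraries it was -0.130 points, where the groups did not overlap (exact permutation p = 0.1). Block 1 stood at 3.48% ± 0.0754 in hemicastrated and 3.56% ± 0.120 in sham mice (exact p = 0.6), and block 2 at 7.19% ± 0.275 in hemicastrated and 7.06% ± 0.339 in sham mice (exact p = 0.7). Positions within 500 bp of a histone gene had 2.25%, 2.19% and 2.35% in the hemicastrated libraries, against 2.52%, 2.32% and 2.69% in the sham libraries. The highest hemicastrated library lay above the lowest sham library, so the groups overlapped (difference -0.245 points, SE 0.117, exact p = 0.2). The median level of these positions was 0.273%. They include 4 in H2bc6, at 90.5% in hemicastrated and 90.4% in sham mice. They also include 4 past the end of H1f1, at 13.3% in hemicastrated and 20.4% in sham mice. Means without these were not computed. The other positions of the blocks stood at 9.88% ± 0.414 in hemicastrated and 9.41% ± 0.155 in sham mice (exact p = 0.2). Adjusted over these 5 comparisons by Benjamini-Hochberg, no p was under 0.5.

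Among histone genes, those of linker histones held the most positions. H1f2 (H1c), a widely expressed H1 gene, had 42 positions and a mean of 0.210% ± 0.106 in hemicastrated and 0.231% ± 0.0767 in sham mice (SD, n = 3 each). H1f5 (H1b) had 28 positions, with 0.336% ± 0.157 in hemicastrated and 0.389% ± 0.239 in sham mice. H1f3 (H1d) had 22, with 0.140% ± 0.126 in hemicastrated and 0.206% ± 0.0911 in sham mice, the lowest mean over 6 libraries among the gene windows. H1f4 (H1e) had 13, with 0.402% ± 0.430 in hemicastrated and 0.558% ± 0.560 in sham mice. These 4 genes did not differ between the groups beyond the spread between mice.

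H1f6, the testis H1 gene, had no member position. Over the gene and 500 bp on either side, 0 of 115 reads were methylated. With 3 counts as the limit of a count of 0, a level of up to 2.61% cannot be told from 0. That limit takes the reads as independent. A fragment counts at each CpG it covers, so the true limit is higher. Within 500 bp of its start alone, H1f6 had 0 of 70 reads methylated. In the same window the other H1 starts, at larger depth, had 0.185% to 0.963% of reads methylated. A difference between H1f6 and the other H1 genes was thus not detectable at this depth.

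H1f1 (H1a) had the highest level of the histone gene windows that are short. Its 7 positions averaged 7.25%, 4.25% and 9.67% in the hemicastrated libraries, against 9.53%, 7.68% and 8.98% in the sham libraries. Its 3 positions inside the gene averaged 1.19% ± 0.531 in hemicastrated and 1.04% ± 0.386 in sham mice. The other 4, a stretch 452 to 494 bp past the end of the gene, carried the methylation, at 13.5%, 9.33% and 17.1% in the hemicastrated libraries and 22.0%, 18.5% and 20.7% in the sham libraries. Each hemicastrated library was below each sham library there. Of all tested tiles, 9.5% had groups that did not overlap.

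Of 14 H2A and 14 H2B genes, 3 and 6 had member positions, and most of these windows were low. The positions of the 3 H2A windows lay in the flank, outside the H2A gene. They belong to the windows of the neighbouring H2B genes as well. H2bc14 had 0.513% ± 0.584 in hemicastrated and 0.465% ± 0.177 in sham mice, and H2bc11 had 0.305% ± 0.331 in hemicastrated and 0.461% ± 0.194 in sham mice. H2ac15 and H2bc15 share a divergent promoter and the same 13 positions, with 0.343% ± 0.343 in hemicastrated and 0.283% ± 0.109 in sham mice. H2bc9 stood at 0.617% ± 0.555 in hemicastrated and 0.460% ± 0.796 in sham mice. H2bc12 had the highest level of the short H2A and H2B windows, from 2 positions past its end, with 2.22%, 6.52% and 2.99% in the hemicastrated libraries, against 0%, 0% and 1.75% in the sham libraries. The 2 positions are neighbouring bases, the 2 strands of 1 CpG. Methylated were 1 of 45, 3 of 46 and 2 of 67 reads in the hemicastrated libraries, against 0 of 52, 0 of 70 and 1 of 57 in the sham libraries. Each hemicastrated library was above each sham library there, and with fewer than 3 positions the window was not tested. Of all tested gene windows, 7.16% had groups that did not overlap. The window of H2ac14 had no methylated read at its 3 positions in the hemicastrated libraries, against 0.546%, 0.389% and 1.26% in the sham libraries. These were 1, 1 and 2 methylated reads. The 3 positions lie inside H2bc14, whose 12 positions together are given above. The 3 H4 genes with positions were H4c11, H4c18 and H4c3. H4c3 had 0.932%, 0.896% and 0.204% in the hemicastrated libraries, against 1.11%, 0.262% and 3.03% in the sham libraries, and sham replicate 3 stood apart from the rest.

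**Figure D1:**
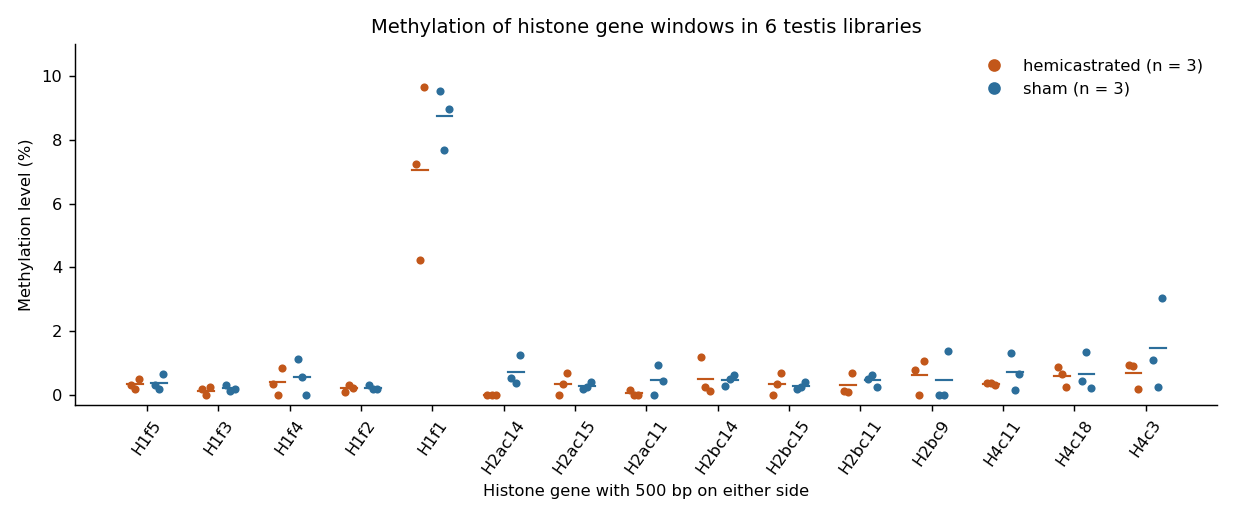
Methylation level in percent of the 15 short histone genes with at least 3 member positions, with 500 bp on either side, in hemicastrated (orange, left) and sham (blue, right) libraries; points are libraries and lines group means. All windows lie under 2% in group mean but that of H1f1, at 7.05% in hemicastrated and 8.73% in sham mice. The positions of the 3 H2A windows are also counted in the windows of the neighbouring H2B genes.

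The annotated gene H2bc6 spans 37455 bp, and its 4 member positions lie deep inside it, also within the long non-coding RNA gene Gm33387. They stood at 90.5% ± 1.68 in hemicastrated and 90.4% ± 2.22 in sham mice, and belong to no histone gene start.

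The histone genes without member positions were read more thinly. Of 50 starts in the promoter table, which lists 49 histone genes, 42 had at least 50 reads in all libraries together, and 41 of these were under 5% methylated. The median over the 42 was 0.533%. Over the 33 starts of genes without member positions, 0.226%, 1.17% and 0.640% of reads were methylated in the hemicastrated libraries, against 0.606%, 0.432% and 0.476% in the sham libraries. The exception was the start of H3c8, an H3 gene, with 17.6% of 74 reads methylated. All 13 methylated reads there were in hemicastrated replicate 2, where 29 reads were listed, while hemicastrated replicates 1 and 3 and sham replicate 1 had none. The 4 starts of H2ac23, H2bc23, H2ac24 and H4bc24 had no read in any library. The promoters of H2bc23 and H4bc24 are identical over all 300 bases, and the part of this in the missing reads was not tested.

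The 335 positions fell into 38 tiles of 500 bp. A mean under 2% was found in 27 tiles, and 7 had a mean of at least 10%. Outside histone genes, Prss16 stood at 1.15% ± 0.383 in hemicastrated and 1.25% ± 0.583 in sham mice and Zfp184, a zinc finger gene, at 0.656% ± 0.376 in hemicastrated and 0.418% ± 0.539 in sham mice. Pom121l2 stood at 4.54% ± 0.304 in hemicastrated and 5.06% ± 1.59 in sham mice. The isoleucine tRNA gene n-TIaat11 had 1.3%, 1.19% and 2.76% in the hemicastrated libraries, against 4.0%, 4.4% and 3.36% in the sham libraries. These were 2, 1 and 6 methylated reads in the hemicastrated libraries and 7, 4 and 4 in the sham libraries. The groups did not overlap there, as in 7.16% of all tested gene windows.

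Of the 7 tiles at 10% or more, that of H2bc6 and Gm33387 lies inside annotated genes, and the one past the end of H1f1 is described above. The other 5 lie in no annotated gene. The tile 4918 bp from Mir1983 stood at 95.5% ± 1.59 in hemicastrated and 93.6% ± 1.84 in sham mice (SD, n = 3 each). A tile 4545 bp from H4c11 had 86.1% ± 3.10 in hemicastrated and 85.9% ± 4.21 in sham mice, and one 6147 bp from Hfe, the iron regulator gene inside the cluster, had 95.1% ± 5.25 in hemicastrated and 95.1% ± 2.16 in sham mice. In these 3 tiles the groups overlapped. Near Gm11338, 1 tile with a single position had 81.1% ± 5.57 in hemicastrated and 85.7% ± 4.57 in sham mice. The tile next to it had 97.7%, 100% and 46.0% in the hemicastrated libraries, against 48.4%, 44.3% and 50% in the sham libraries, and holds the position called below. Hemicastrated replicates 1 and 2 were high there and hemicastrated replicate 3 lay among the sham libraries.

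**Figure D2:**
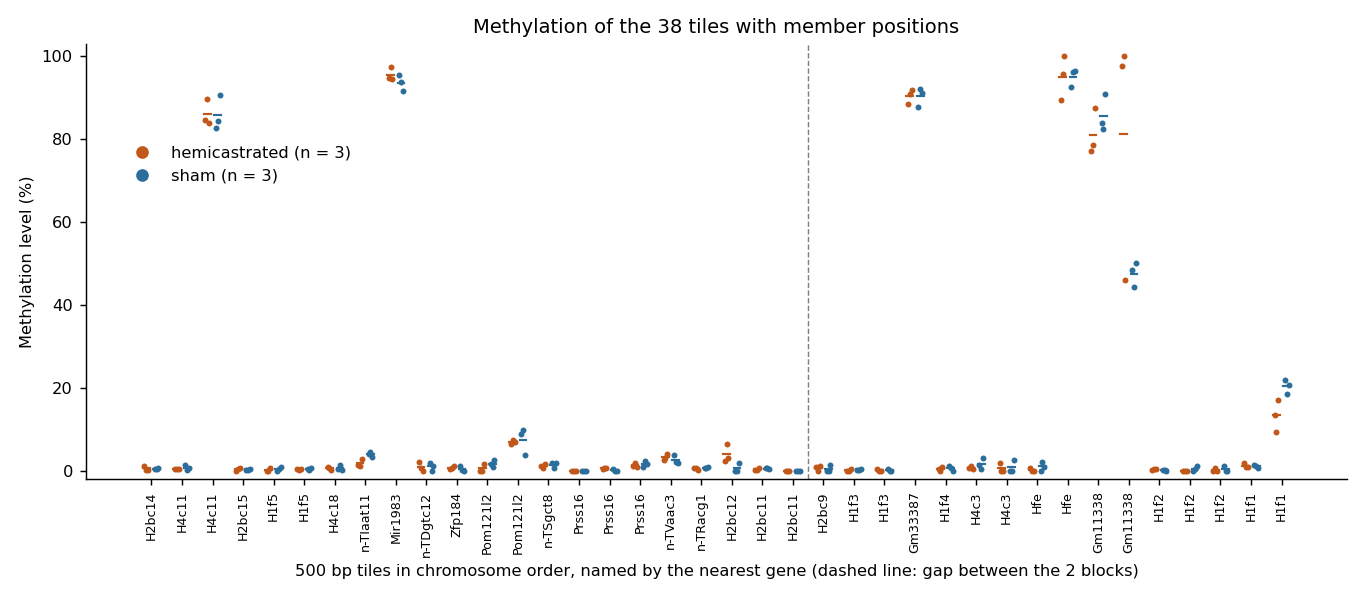
Methylation level in percent of the 38 tiles with member positions, in chromosome order and named by the nearest gene, in hemicastrated (orange, left) and sham (blue, right) libraries; points are libraries and lines group means. Most tiles are near 0, and 7 have a mean of at least 10%, of which the tile at H1f1 and 1 of those near Gm11338 show libraries apart.

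No tile and no gene window of the cluster passed the test for a group difference. The test was edgeR's quasi-likelihood F test on methylated and unmethylated counts, fitted to the whole genome with Benjamini-Hochberg adjustment at 0.05. It called 0 of 30 tiles with at least 3 positions, and 0 of 71149 in the genome (0%). At an unadjusted p under 0.05 it gave 1 of 30, against 4.27% of all tiles. It also called 0 of 22 gene windows, and 0 of 21572 in the genome (0%). At an unadjusted p under 0.05 it gave 1 of 22 gene windows, against 3.2% of all. The limma alternative called none of them either. The groups did not overlap in 3 of 30 tiles, against 9.5% of all tiles, and in 2 of 22 gene windows, against 7.16% of all.

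The tile with the smallest p was the one past the end of H1f1, from 23764501 to 23765000, with the values above (difference -7.09 points, edgeR adjusted p = 1). Next came the tile of n-TIaat11 (-2.17 points, edgeR adjusted p = 1). Among those higher in hemicastrated mice, a tile in Prss16 had the smallest p (edgeR adjusted p = 1). It stood at 0.526% ± 0.156 in hemicastrated and 0.0947% ± 0.164 in sham mice. Methylated were 1, 1 and 3 reads in the hemicastrated libraries, against 1, 0 and 0 in the sham libraries. Both means lie within or below the 0.478% to 0.617% on mitochondrial DNA. Among gene windows, that of H2ac14, whose positions lie inside H2bc14, had the smallest p (-0.731 points, edgeR adjusted p = 1). The median difference was -0.137 points over the 30 tiles, against -0.0208 over all tiles, and -0.0641 points over the 22 gene windows, against -0.0217 over all.

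Single positions gave 1 call. Of 208 member positions with both methylated and unmethylated reads, 1 passed, against 0.0866% of the 814966 tested. It is position 23723584 of chromosome 13, in no annotated gene, 4726 bp or more from the nearest, Gm11338. Reads were methylated in 21 of 22, 14 of 14 and 0 of 31 in hemicastrated replicates 1, 2 and 3, against 0 of 32, 0 of 35 and 0 of 23 in sham replicates 1, 2 and 3. Hemicastrated replicate 3 was as unmethylated as the sham libraries, so the groups overlapped, and the call rests on the other 2 mice. The difference was 65.2 points (edgeR adjusted p = 3.16e-06). All positions share 1 spread in this fit, so the gap between hemicastrated mice did not enter the test. With a robust prior the adjusted p was 0.814 and with limma 0.120, and without hemicastrated replicate 3 the difference was 97.7 points. The neighbouring position 23723570 was 88.6% to 100% methylated in all 6 libraries. A range above 90 points was found in 1 of 208 positions, against 0.143% of all.

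Among positions lower in hemicastrated mice, the smallest p was at 21855329 in n-TIaat11. It had no methylated read in the hemicastrated libraries, against 8.0%, 7.69% and 5.88% in the sham libraries (edgeR adjusted p = 0.841). All 7 positions of its tile together held 7, 4 and 4 methylated reads in the sham libraries, so these levels rest on few reads. At an unadjusted p under 0.05 there were 2 of 208 positions, against 2.62% of all. The groups did not overlap in 7 of 208 positions, against 6.06% of all. The median difference was -0.198 points over the 208, against -0.0150 over all.

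**Figure D3:**
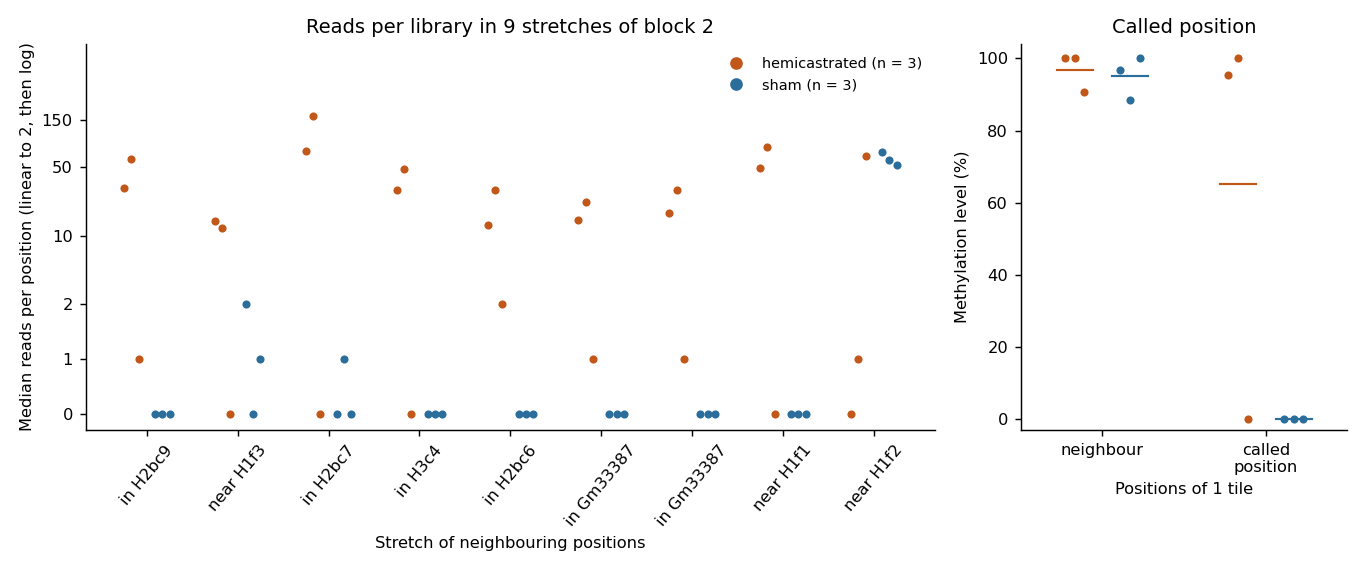
Left, median reads per position in 9 stretches of block 2, on an axis that is linear to 2 and logarithmic above. Right, methylation level in percent at the called position and its neighbour; points are hemicastrated (orange, left) and sham (blue, right) libraries, and lines at the right are group means. In 8 stretches hemicastrated replicates 1 and 2 have 12 or more reads where the other 4 libraries have 2 or fewer, and the same 2 mice are methylated at the called position.

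Hemicastrated replicates 1 and 2 also stood apart in which positions were read in block 2. Of 578 positions with at least 10 reads in at least 1 library, 59 (10.2%) had at least 10 reads in at least 2 hemicastrated libraries and at most 2 in each sham library, against 0.149% by the same rule in the whole series. In all 59 the 2 libraries were hemicastrated replicates 1 and 2, and hemicastrated replicate 3 had at most 2 reads. No position had at least 10 reads in at least 2 sham libraries and at most 2 in each hemicastrated library. The 59 positions formed 8 stretches, from H2bc9 to H1f1. In a further stretch 416 bp from H1f2, these 2 libraries had medians of 0 and 1 reads, against 65.5 in hemicastrated replicate 3 and 71, 59.5 and 53 in the sham libraries. None of these positions are members, since each lacks 10 reads in at least 1 library. Sequence differences between the mice were not read here, and their part in the called position and in the reads was not tested.

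At H2bc7, a median of 74 and 168 reads was found in hemicastrated replicates 1 and 2, with 0 and 0.397% methylated. The stretch near H1f1 holds the other strand of the CpGs past that gene's end, with 18.9% and 13.1% methylated in the same 2 libraries. The stretches in H2bc9, H3c4 and near the start of H2bc6 were under 1% methylated in both libraries. The 2 stretches shared by the long H2bc6 annotation and Gm33387 were methylated, at 48.3% and 60.3% in hemicastrated replicate 1 and 75.0% and 68.1% in hemicastrated replicate 2.

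Most histone genes measured elsewhere in the genome had low levels. H2ac20, H2bc21, H3c15, H2ac19 and H2ac18 on chromosome 3, H1f10 and H4f16 on chromosome 6 and H2bu2 on chromosome 11 averaged 0.345% to 0.551% over the 6 libraries. H1f0 on chromosome 15, a linker histone gene, averaged 1.37%. The testis histone genes H2bc1 and H2ac1, on chromosome 13 outside the 2 blocks, averaged 18.2% and 16.9%, and the spermatid linker histone gene H1f7 averaged 22.5%.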

How the data were processed

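The authors deposited, for each of 6 libraries, methylated and unmethylated read counts per cytosine, which are raw counts, and the level in percent; the deposited percent was not used and levels were computed from the counts. Per the submitters' processing notes, Bismark, TopHat2 2.0.11 and GRCm38 were used, with no role stated. Read trimming and duplicate removal are steps not given in the sources used here. Files name no strand, and all 580 of 580 listed positions checked in promoter sequences lay on a CpG.

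Levels were unweighted means over positions and, for tiles and genes, methylated reads over all reads. Genes came from RefSeq tables of GRCm38.p6; a gene window reached 500 bp outside its boundaries. Differences were tested with edgeR 4.0.16 in R 4.3.3 (limma 3.58.1 as an alternative), with a column per library, over all features of the genome, leaving out features with no methylated or no unmethylated read. Replicate numbers were not taken as pairs, since same-numbered libraries deviated together only weakly.

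The fits were tested on simulated data. A first simulation, with a spread set by hand that turned out several times wider for tiles and gene windows than that of the deposited counts, recovered none of those features at a moderate shift and, over a wider set of shifts, mostly the large ones. It was kept, and a second was added with the spread estimated from the counts, which is the more favourable case because it follows the fitted model. There most shifts away from low levels were recovered, except small ones at single positions, while most moderate shifts at middle levels were missed at single positions and tiles. A count of 0 calls therefore does not show that levels were equal.

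The members, gene lists and tests were chosen with earlier results of these data known. Named features were the histone genes, the tiles at 10% or more, and those with the smallest p in each direction; H3c8, the thinly read starts, the stretches and the histone genes elsewhere were chosen after their values were seen.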

Additional observations from a re-analysis of the deposited data

Results flagged for a closer look

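Signals appeared in positions outside the comparisons, where hemicastrated replicates 1 and 2 were read and the sham libraries had a median of 2 reads or fewer. The median reads per position in hemicastrated replicate 2 were 60 in H2bc9, 12 near H1f3, 168 in H2bc7, 48 in H3c4 and 29 in H2bc6. They were 22 and 29 in 2 stretches of Gm33387 and 80 near H1f1. Groups of 3 libraries were not tested for outliers.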

How the results depend on the processing

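Of the 5 differences of mean levels, that of histone genes kept its sign under each alternative run, and the others that turned are given here; the cause was not tested. Block 1 turned to 0.0293 points with at least 20 reads, and block 2 turned to -0.747 with at least 20 reads, -0.342 with at least 5 and -0.813 when weighted by coverage. The non-histone positions turned to -0.0950 with at least 5 reads and -0.757 when weighted. With at least 20 reads, block 2 and the non-histone positions also lose position 23723584. In the main run it was 65.2 points higher in hemicastrated mice, and its part in the turns was not tested. Without a change of sign, the cluster moved to -0.580 when weighted by coverage and to -0.130 with at least 20 reads (exact permutation p = 0.1, the smallest possible), and block 1 to -0.464 when weighted (exact permutation p = 0.1). Leaving out 1 library moved block 2 between -0.0241 and 0.312 and the whole cluster between -0.0757 and 0.0403. The within-library differences ranged from -7.39 to -7.09 and from -25.0 to -24.8, with a p of 0.0625, the smallest that 5 libraries allow. The count of called positions was 0 with at least 20 reads, where position 23723584 is no member, 0 with the robust prior and 0 with limma, and 1 without each library in turn. Its difference then ranged from 47.7 to 97.7 points. With a flank of 1000 bp, H2ac14 turned to 0.0484 points, the difference of H2bc14. The window then holds all 12 positions of H2bc14, of which the 500 bp window holds 3. Windows around starts, chosen after seeing the data, gave 0 calls and -10.5 points for histone against other positions. With the replicate number as a block, 1 position was called, as without it. Same-numbered libraries correlated at 0.0346 to 0.0778, under 0.1, so the number was not taken as a pairing, although each correlated best with its own number. Depth limits the genes without member positions.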
